A study of Mus musculus with 8 samples.

Results

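Molecular chaperones are proteins that help other proteins fold, keep damaged proteins from clumping and pass those that cannot be saved on for degradation. Hsp70 proteins bind exposed stretches of unfolded protein in a cycle driven by ATP, J-domain proteins deliver these clients and Hsp110 proteins reload the nucleotide, while Hsp90 proteins finish the folding of kinases and receptors. Constitutive members such as *Hspa8* are made in large amounts by neurons at rest, whereas the inducible Hsp70 genes are switched on through heat shock factor 1 and its binding sites, the heat shock elements, when proteins misfold. The 10 genes examined here, of 38031 genes in the count table, were chosen by name as the best known of this network: *Hspa1a*, *Hspa1b*, *Hspa8* and *Hsph1* (cytosolic Hsp70 and Hsp110), *Dnajb1* (their J-domain partner), *Hsp90aa1* and *Hsp90ab1* (cytosolic Hsp90), *Hspb1* (a small heat shock protein), *Hspa5* (the Hsp70 of the endoplasmic reticulum, ER) and *Hspd1* (the chaperonin of mitochondria).

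Total RNA was sequenced from the primary motor cortex (M1) of male wildtype Swiss Webster mice, with 4 libraries from *Fezf2 shRNA*-treated animals and 4 from control animals given *non-silencing shRNA*. Both treatments were lentiviruses injected at P21 to P25, and tissue was collected at P49 to P53, 4 weeks later. In both, a *Synapsin I* promoter drove mCherry and the shRNA, so that the construct was made for neurons, whereas the dissected mCherry-positive tissue held all cortical layers and the meninges. Every animal therefore carried a virus and a surgical injury, and an untreated cortex was not analysed here. The comparison asks which genes depend on *Fezf2*, a transcription factor of layer 5 projection neurons, in the mature cortex. In such bulk tissue, fewer cells of a type and less RNA per cell cannot be told apart.

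Each library had 54684016 to 58003814 counts over 1 transcript per gene. *Fezf2* had 688, 767, 735 and 702 normalized counts (counts scaled to the mean effective library size) in control replicates 1 to 4, and 621, 583, 568 and 592 in *Fezf2 shRNA* replicates 1 to 4. All 4 treated libraries lay below all 4 controls for *Fezf2*, as their labels say, with a log2 fold change of -0.29 (SE 0.0781, adjusted p = 0.0824). This and every later adjusted p of edgeR is from its quasi-likelihood test, with the Benjamini-Hochberg method applied to all genes tested. DESeq2 gave -0.28 for *Fezf2* with an adjusted p of 0.0256, and with an offset for gene length, explained further on, edgeR gave -0.18 (adjusted p = 0.465). The 7 neuron markers looked up (such as *Rbfox3* and *Snap25*) were detected in every library and summed to 4631 to 5050 CPM (counts scaled to a fixed library total) in controls and 4653 to 4983 in treated libraries. Marker lists of astrocytes, oligodendrocytes, oligodendrocyte precursors, microglia, endothelial cells and meninges also had every marker detected in all 8 libraries, so M1 tissue of mixed cell types was measured. The mean sums of these lists were lower in treated libraries except for microglia. Oligodendrocyte markers had means of 1485 CPM in controls and 1074 in treated libraries (exact permutation test, p = 0.171). Those of oligodendrocyte precursors had 98.2 and 83.1 CPM (exact permutation test, p = 0.0571).

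Of the 10 genes, 7 exceeded 8 CPM in 4 or more of the libraries and were tested among 9959 genes. *Hspa1a*, *Hspa1b* and *Hspb1* were below this level and are given from a fit with no filter. None of the 7 passed the threshold of an adjusted p of at most 0.05 with a log2 fold change of at least 0.2 in either direction, where 2.09% of all genes tested did (208 genes, of which 13 or 0.131% were lower in *Fezf2 shRNA*-treated M1). DESeq2 (without its prior) also placed 0 of the 7 past the threshold, where it placed 752 of all 9959 genes tested. At an unadjusted p under 0.05 edgeR had 1 of the 7, *Hspa5*, where 7.73% of all genes were lower and 11.8% higher. When single libraries were left out, the number of all genes past the threshold itself went as low as 0 (control replicate 1 removed) and as high as 368 (control replicate 2 removed). For 0 of the 7 were the treated libraries all on one side of the controls, against 11.8% of all genes tested.

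The heat-inducible Hsp70 genes are shown first with the stretch before their start sites, because they are near copies that sit side by side. In that stretch they share a match to a 2-unit heat shock element. *Hspa1a* (chr17:34969190-34972156, minus strand of GRCm38) and *Hspa1b* (chr17:34956436-34959238, minus strand) are each 1 exon with no intron, and 47.1% of all 100-base stretches of the *Hspa1a* transcript are also found in that of *Hspa1b*. RefSeq windows of 250 bases before to 50 after the start site (build GRCm38.p6) were given for 7 of the 10 genes, not for *Hspa8*, *Hsp90aa1* or *Hsp90ab1*. Below are the 250 bases before the start of *Hspa1a* (chr17:34972157-34972406) and of *Hspa1b* (chr17:34959239-34959488), both 5′ to 3′ on the minus strand, which differ at 3 bases. Capitals mark the match to a 2-unit heat shock element.
Hspa1a: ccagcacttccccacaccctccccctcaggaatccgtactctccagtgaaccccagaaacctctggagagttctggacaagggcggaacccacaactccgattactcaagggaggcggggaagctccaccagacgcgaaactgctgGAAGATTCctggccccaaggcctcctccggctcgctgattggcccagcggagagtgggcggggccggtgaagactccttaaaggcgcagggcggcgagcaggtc
Hspa1b: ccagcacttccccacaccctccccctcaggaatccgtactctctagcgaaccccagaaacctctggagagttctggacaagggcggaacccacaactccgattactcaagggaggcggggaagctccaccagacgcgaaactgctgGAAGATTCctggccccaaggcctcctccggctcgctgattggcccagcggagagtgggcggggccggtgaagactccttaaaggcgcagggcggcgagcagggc

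The element was searched as 2 units (GAANNTTC or TTCNNGAA, each its own reverse complement) and as 3 units (GAANNTTCNNGAA or its reverse complement, which contain the 2-unit forms) in all 32851 windows. The 2-unit form was in 5 of the 7 genes with a window (*Hspa1a*, *Hspa1b*, *Hspb1*, *Hspd1*, *Hsph1*) and in 15.1% of all windows. The 3-unit form was in *Hspd1* and *Hsph1* and in 0.603% of all windows, and in *Hsph1* it lay after the start site. In *Hspd1* it lay in the short stretch between the counted transcripts of *Hspd1* and of its neighbour *Hspe1*, the cochaperonin with which it works, which are read in opposite directions (chr1:55088025-55088131, shown on the minus strand with both overlapping 3-unit matches in capitals).
Hspd1: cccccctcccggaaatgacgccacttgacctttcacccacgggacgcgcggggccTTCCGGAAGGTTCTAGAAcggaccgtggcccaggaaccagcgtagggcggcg

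*Hspa5* and the heat-inducible *Dnajb1* had no match to either form of the heat shock element in their windows. *Hspa5* held the ER stress response element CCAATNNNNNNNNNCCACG, which was in 0.119% of all windows, searched on both strands. This element is known as the site through which misfolded protein in the ER raises the transcription of *Hspa5*. It is shown in capitals with the flanking bases (chr2:34772020-34772049, plus strand). This stretch lies before the RefSeq start site but within the span of the counted transcript, which starts at chr2:34771970. These matches describe letters in the window and were not tested for binding.
Hspa5: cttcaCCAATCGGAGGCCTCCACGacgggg

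Per kilobase of exon, the 10 genes spanned a wide range of levels, with *Hspa8* at the top and *Hspb1* at the bottom. In controls the level was 417 ± 22.3 CPM per exonic kb (SD, n = 4) for *Hspa8*, 253 ± 33.2 for *Hsp90ab1* and 178 ± 5.45 for *Hsp90aa1*. The next were *Hsph1* with 33.2 ± 5.21, *Hspa5* with 27.6 ± 1.62, *Hspd1* with 22.5 ± 1.91 and *Dnajb1* with 6.13 ± 0.463 CPM per exonic kb. The heat-inducible Hsp70 genes were lowest together with the small heat shock protein, with *Hspa1b* at 1.99 ± 0.534, *Hspa1a* at 1.60 ± 0.404 and *Hspb1* at 1.08 ± 0.243 CPM per exonic kb. Intervals of 1 SD overlapped between *Hsph1* and *Hspa5*, between *Hspa1b* and *Hspa1a* and between *Hspa1a* and *Hspb1*, and not between the other neighbours in this order. The counts include reads in introns, so the level of a gene with little exon, such as *Hsph1* with 16.7% of its span exonic, is overstated on this scale.

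**Figure D1:**
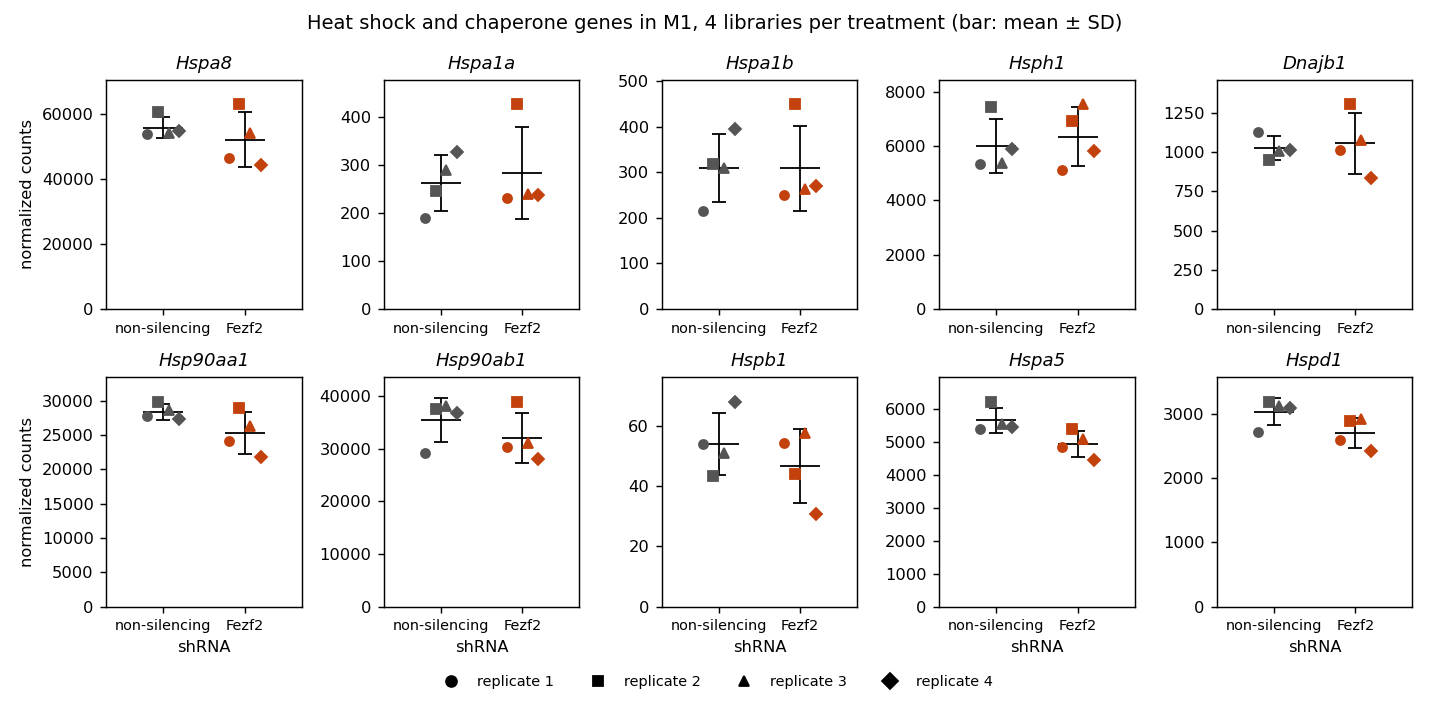
Normalized counts (y axis, from 0) of the 10 chaperone genes in each of the 4 *non-silencing shRNA* (gray) and 4 *Fezf2 shRNA* (orange) libraries, with the symbol giving the replicate number and the black bars the mean ± SD. The treatments overlap in every panel, and *Fezf2 shRNA* replicate 2 (square) is the highest of the 8 libraries for *Hspa8*, *Hspa1a*, *Hspa1b*, *Dnajb1* and *Hsp90ab1*.

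*Hspa8*, the constitutive Hsp70 of the cytosol that also strips clathrin from vesicles in synapses, had 53676, 60586, 54038 and 54501 normalized counts in control replicates 1 to 4. In *Fezf2 shRNA* replicates 1 to 4 it had 46313, 62835, 54153 and 44313. Replicates 1 and 4 of the treated libraries lay below all controls and replicate 2 above all of them, so the treatments overlapped. The means were 55700.2 ± 3275 and 51903 ± 8435 (SD, n = 4 each), and the log2 fold change was -0.10 (SE 0.109, adjusted p = 0.628, edgeR; two-sided exact permutation test, p = 0.486). *Hspa8* (chr9:40800984-40805200) holds the small nucleolar RNA genes *Snord14c*, *Snord14d* and *Snord14e* in its span on the same strand, so reads of these are part of its count. Across 9 annotated *Hspa8* transcripts, the counted one included, the log2 ratio of the mean normalized counts ranged from -0.11 to -0.09. The spans of these transcripts overlap and share reads, so they are not separate measurements.

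For the heat-inducible Hsp70 genes, 1 treated library stood apart from the other 3, and it was also the highest of the 8 for *Hspa8*, *Dnajb1* and *Hsp90ab1*. *Hspa1a* had 191, 247, 290.1 and 327 normalized counts in control replicates 1 to 4 and 231, 427, 239.9 and 237 in *Fezf2 shRNA* replicates 1 to 4. *Hspa1b* had 214, 318, 309 and 395 in the controls and 251, 449, 263 and 271 in the treated libraries. For both genes *Fezf2 shRNA* replicate 2 was the highest of all 8 libraries and the other 3 treated libraries lay within the range of the controls. The log2 fold changes were 0.12 for *Hspa1a* (SE 0.214, adjusted p = 0.859) and 0.01 for *Hspa1b* (SE 0.206, adjusted p = 0.998, edgeR with no filter). Without *Fezf2 shRNA* replicate 2 they turned to -0.15 (adjusted p = 0.739) and -0.23 (adjusted p = 0.621), and without control replicate 1 to -0.01 (adjusted p = 0.988) and -0.14 (adjusted p = 0.829). Because reads can fit both copies, the split between these genes is uncertain, and the ratio of *Hspa1a* to *Hspa1b* was 0.858 ± 0.0714 in controls and 0.915 ± 0.0309 in treated libraries (exact permutation test, p = 0.229). *Hspa1a* also shares 2225 bases with *Gm20481* on the opposite strand, and since the strand setting of the counting is not given, reads of these genes may not have been separated.

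The ratio of *Hspa1a* to the constitutive *Hspa8* shows the same library. It was 0.00356, 0.00407, 0.00537 and 0.00600 in control replicates 1 to 4, and 0.00499, 0.00680, 0.00443 and 0.00535 in the treated libraries. *Fezf2 shRNA* replicate 2 had the highest ratio and control replicate 1 the lowest, and no difference between the treatment means was detected (exact permutation test, p = 0.486). The 6 meningeal markers looked up (such as *Col1a1* and *Dcn*) summed to 38.0 CPM in *Fezf2 shRNA* replicate 2, against 7.19 to 15.8 in the other treated libraries and 8.03 to 30.8 in controls. Control replicate 1, with the lowest ratio, had 30.7 CPM of these markers, and their part in these values was not tested.

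*Hsph1*, the Hsp110 protein that exchanges nucleotide on Hsp70, is the longest of the 10 genes (chr5:149616845-149636209, 17 exons, minus strand). Its normalized counts were 5332, 7448, 5354 and 5894 in control replicates 1 to 4 and 5117, 6902, 7532 and 5809 in the treated replicates. Control replicate 2 and treated replicates 2 and 3 were high, and the rest lay close together in both treatments. The log2 fold change was 0.08 (SE 0.134, adjusted p = 0.771, edgeR; exact permutation test, p = 0.800), and it was -0.01 without *Fezf2 shRNA* replicate 3 (adjusted p = 0.977) and 0.20 without control replicate 2 (adjusted p = 0.328).

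*Dnajb1*, the J-domain protein that delivers clients to Hsp70 and is itself inducible by heat, had 1127, 948, 1009 and 1014 normalized counts in control replicates 1 to 4 (chr8:83608193-83612653, plus strand). It had 1013, 1304, 1076 and 834 in the *Fezf2 shRNA* replicates. Here too *Fezf2 shRNA* replicate 2 was highest of the 8 and replicate 4 lowest, with the controls between them. The log2 fold change was 0.04 (SE 0.122, adjusted p = 0.862, edgeR; exact permutation test, p = 0.771), which became -0.07 without *Fezf2 shRNA* replicate 2 (adjusted p = 0.712) and 0.14 without replicate 4.

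Both cytosolic Hsp90 genes were lower on average in *Fezf2 shRNA*-treated M1, and neither passed the threshold. *Hsp90aa1*, the form inducible by stress (chr12:110691028-110696289, minus strand), had 27727.5, 29843, 28632 and 27312 normalized counts in control replicates 1 to 4 and 24211, 28965, 26391 and 21804 in the treated ones. In all, 3 of the 4 treated libraries lay below all controls and replicate 2 lay among them. The means were 28379 ± 1121 and 25343 ± 3056 (SD, n = 4 each), and the log2 fold change was -0.16 (SE 0.0891, adjusted p = 0.321, edgeR; exact permutation test, p = 0.143). It was -0.23 without *Fezf2 shRNA* replicate 2 (adjusted p = 0.138) and -0.10 without replicate 4 (adjusted p = 0.584).

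*Hsp90ab1*, the constitutive form (chr17:45567775-45573271, minus strand), had 29304, 37587, 38218 and 36798 normalized counts in control replicates 1 to 4. In the treated replicates it had 30307, 38946, 31039.5 and 28037. Control replicate 1 stood with the 3 low treated libraries, and treated replicate 2 with the 3 high controls. The log2 fold change was -0.15 (SE 0.117, adjusted p = 0.502, edgeR; exact permutation test, p = 0.429). The ratio of *Hsp90aa1* to *Hsp90ab1* was 0.946 in control replicate 1 and 0.742 to 0.794 in the other controls, against 0.744 to 0.850 in treated libraries. No difference between the treatment means of this ratio was detected (exact permutation test, p = 0.829).

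*Hspb1*, a small heat shock protein that holds unfolded proteins until Hsp70 can refold them, was near the limit of what these libraries show. It had 54.1, 43.4, 51.1 and 68.1 normalized counts in control replicates 1 to 4 and 54.5, 44.2, 57.7 and 30.6 in the treated ones (chr5:135887919-135889563, plus strand). Treated replicate 4 was the lowest of the 8 and the other 3 lay within the controls. The log2 fold change was -0.20 (SE 0.275, adjusted p = 0.796, edgeR with no filter; exact permutation test, p = 0.486), and it was -0.04 without *Fezf2 shRNA* replicate 4.

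*Hspa5*, which folds secreted and membrane proteins in the ER and holds the sensors of the unfolded protein response inactive, had the smallest p of the 7 genes tested. Its normalized counts were 5387, 6212, 5542 and 5459 in control replicates 1 to 4 and 4842, 5392, 5093 and 4445 in the treated ones (chr2:34771970-34777547, plus strand). Treated replicates 1, 3 and 4 lay below all controls, and replicate 2 lay just above the lowest control. The means were 5650.2 ± 379.9 and 4943 ± 401 (SD, n = 4 each), and the log2 fold change was -0.19 (SE 0.0722, unadjusted p = 0.022, adjusted p = 0.185, edgeR; exact permutation test, p = 0.0571, where 70 regroupings allow at least 0.0286). It was -0.24 without *Fezf2 shRNA* replicate 2 (adjusted p = 0.110) and -0.14 without control replicate 2 (adjusted p = 0.230). The ratio of *Hspa5* to *Hsp90b1*, the Hsp90 of the ER, was 0.659 ± 0.0297 in controls and 0.618 ± 0.0203 in treated libraries (exact permutation test, p = 0.0571).

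*Hspd1*, the chaperonin that encloses proteins folding in mitochondria, had 2720, 3186, 3125 and 3097 normalized counts in control replicates 1 to 4 (chr1:55077835-55088024, minus strand). The *Fezf2 shRNA* replicates had 2597, 2885, 2915 and 2425. Control replicate 1 lay among the treated libraries and the other controls lay above all of these. The log2 fold change was -0.16 (SE 0.0785, adjusted p = 0.274, edgeR; exact permutation test, p = 0.0857), and without control replicate 1 it was -0.21 (adjusted p = 0.233). The ratio of *Hspd1* to *Hspe1*, its partner read from the shared stretch printed above, was 4.52 ± 0.352 in controls and 4.27 ± 0.421 in treated libraries (exact permutation test, p = 0.400).

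Across the genes, the same libraries lay at the ends. *Fezf2 shRNA* replicate 4 was the lowest of the 8 libraries for 7 of the 10 genes, and replicate 2 of that treatment was the highest for 5 of the 10. Among the controls, replicate 1 was the lowest for 7 of the 10 and replicate 2 the highest for 5 of the 10. All tested genes with a span under 10 kb had their lowest median deviation from the 8-library mean in *Fezf2 shRNA* replicate 4 (-0.11 log2 units). Among the treated libraries this deviation was highest in replicate 2 (0.02), and among the controls it was lowest in replicate 2 (0.03). How often other genes had these libraries at the ends was not counted. The median of the 7 tested genes relative to the control mean was -0.33 log2 units in *Fezf2 shRNA* replicate 4, -0.22 in replicate 1, -0.05 in replicate 3 and 0.14 in replicate 2. The meningeal marker sum was also lowest in *Fezf2 shRNA* replicate 4 and highest in replicate 2. Among the controls it went the other way, with its lowest sum in replicate 2 (8.03 CPM) and 30.7 CPM in replicate 1. The neuron marker sum in *Fezf2 shRNA* replicates 4 and 2 was 4653 and 4851 CPM, within the range of controls. The part of neither sum in these values was tested.

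**Figure D2:**
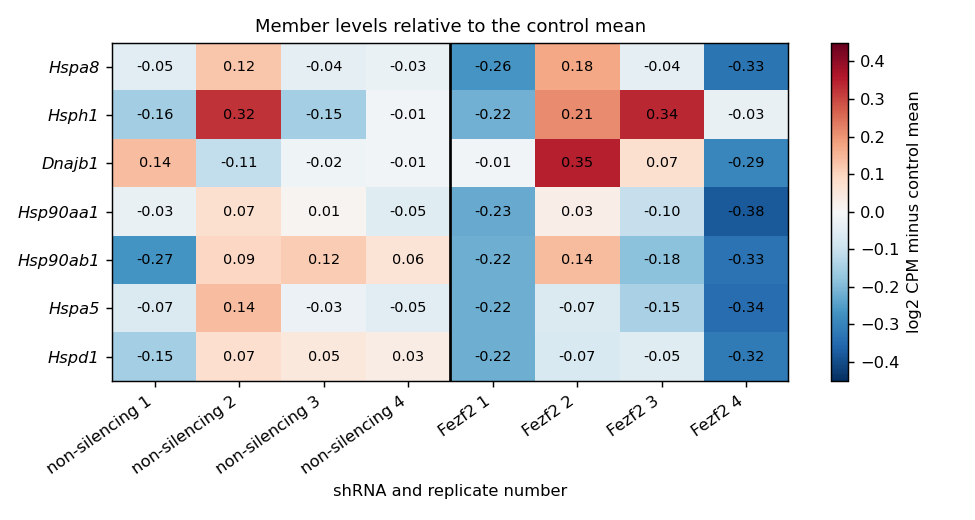
Difference of each library's log2 CPM from the mean of the 4 controls (color and printed value) for the 7 tested chaperone genes (rows) in the 4 *non-silencing shRNA* and 4 *Fezf2 shRNA* libraries (columns). The treated libraries range from -0.38 for *Hsp90aa1* in replicate 4 to 0.35 for *Dnajb1* in replicate 2.

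The size of these differences was set beside gene length, since counts shifted with it in these libraries. Among the 2153 tested genes with a span under 10 kb the median log2 fold change was -0.12 and 83.4% were below 0, whereas among 1704 genes over 100 kb the median was 0.18 and 12.3% were below 0. The difference between the median deviation of the short and of the long genes was 0.07 to 0.21 log2 units in the controls, and in *Fezf2 shRNA* replicates 1 to 4 it was -0.16, -0.0010, -0.20 and -0.20 (exact permutation test, p = 0.0286, the smallest 70 regroupings can give). The median over the 7 tested chaperone genes, whose spans run from 4217 bases for *Hspa8* to 19365 for *Hsph1*, was -0.15 with 5 of 7 below 0, beside -0.03 and 56.6% over all genes tested. With an offset that removes from each library its trend of counts with gene span, the median of the 7 was -0.04 and 4 of 7 were below 0, beside -0.01 and 53.7% over all genes.

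Under the same offset *Hsp90aa1* was at -0.06 (SE 0.0761), *Hsp90ab1* at -0.04 (SE 0.0998), *Hspa5* at -0.09 (SE 0.0662) and *Hspd1* at -0.07 (SE 0.0748), each below its SE in size except *Hspa5*. *Hspa8* changed sign to 0.01 (SE 0.0949). *Dnajb1* and *Hsph1* were at 0.15 (SE 0.106) and 0.14 (SE 0.137), and the adjusted p over these 7 genes were 0.663 to 0.988 by edgeR. Only 2 of all genes were past the threshold with the offset. The cause of the trend with gene span was not tested.

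**Figure D3:**
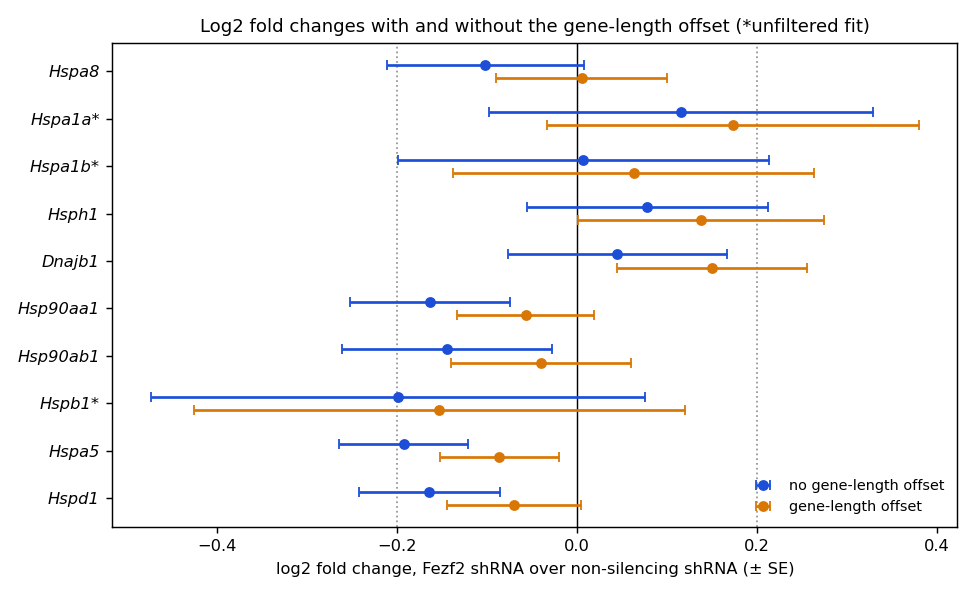
Log2 fold change of *Fezf2 shRNA* over *non-silencing shRNA* (points, ± SE) of the 10 chaperone genes without (blue) and with (orange) the gene-length offset, with stars for the 3 genes fitted with no filter and dotted lines at 0.2 in either direction. The offset moves all 10 genes to the right, and *Hspa8* crosses 0.

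**Figure D4:**
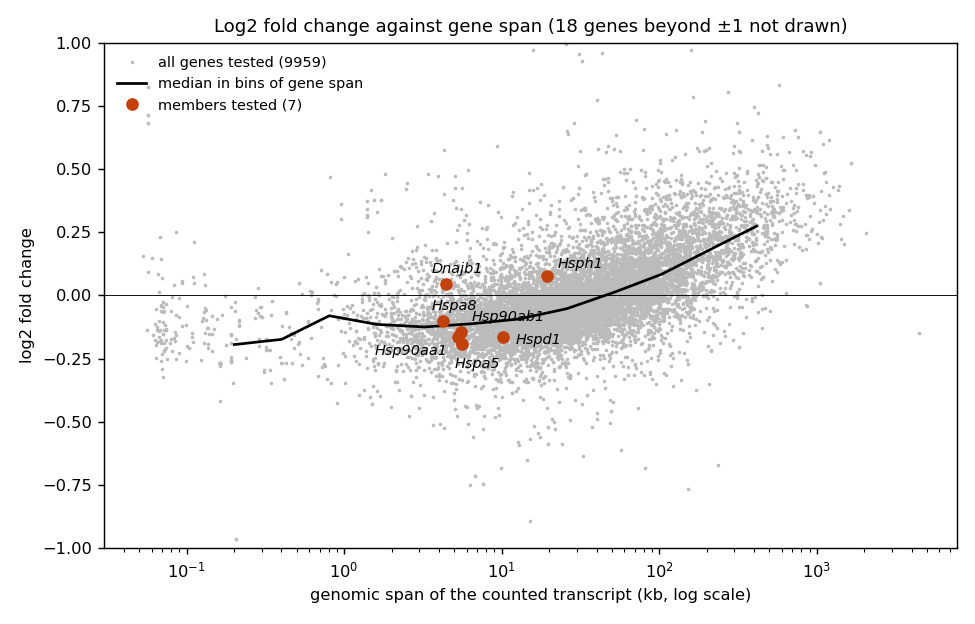
Log2 fold change (y axis) against the genomic span of the counted transcript (x axis, kb, log scale) for the 9959 genes tested (gray), with the median in bins of span (black line) and the 7 tested chaperone genes (orange). *Hspa8* and *Hsp90ab1* lie near the median of genes of their span, *Hspa5* and *Hspd1* below it and *Dnajb1* and *Hsph1* above it.

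The rest of the chaperone network was taken from a list of 130 genes sorted by role, of which 102 were tested. None passed the threshold in edgeR. At an unadjusted p under 0.05 edgeR had 12 lower and 2 higher, which is 14 of 102 beside 7.73% of all genes lower and 11.8% higher, and DESeq2 placed 3 past the threshold (*Atf4* and *Sgta* lower, *Dnajc1* higher). The median log2 fold change of the 102 was -0.09 with 83 below 0 (81.4%), beside 56.6% of all genes tested. Of all genes tested under 10 kb 83.4% were below 0, and of those of 10 to 30 kb 75.5%. With the gene-length offset the median of the 102 was -0.04 with 71 below 0 (69.6%), beside -0.01 and 53.7% over all genes. The counts by role below stand beside the same shares. The treatments did not overlap for 7 of the 102 (*Dnajb12*, *Dnajc13*, *Bag4*, *Bag5*, *St13*, *P4hb* and *Lonp1*), beside 11.8% of all genes.

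**Figure D5:**
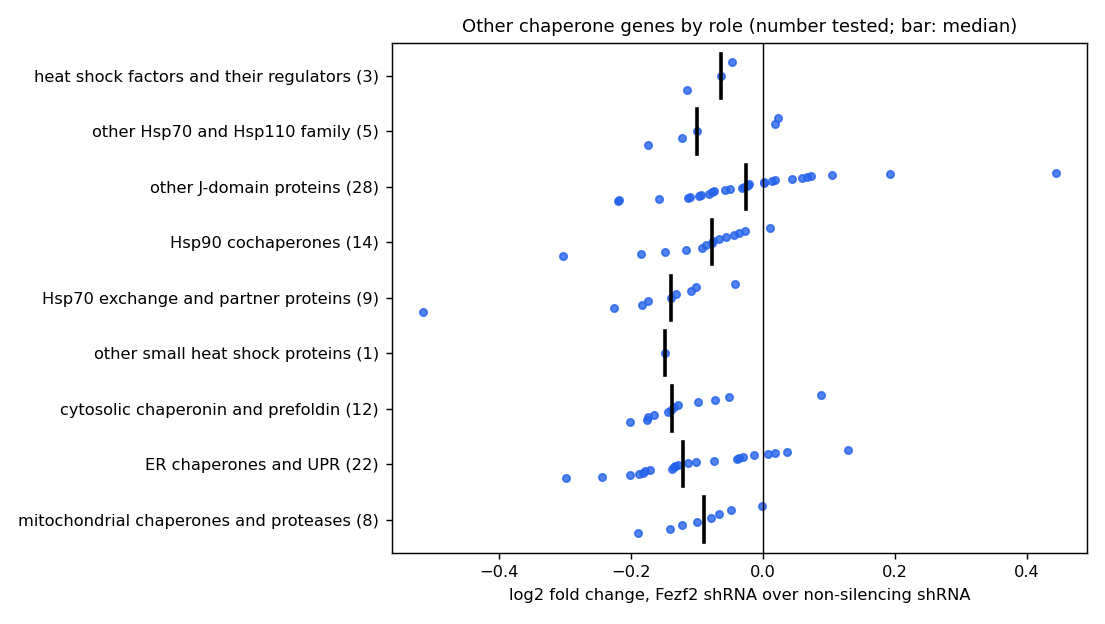
Log2 fold changes (x axis) of the 102 other chaperone genes tested, by role (rows, with the number tested), with a black bar at the median of each role. Every median lies below 0, from -0.15 to -0.03, and the points farthest out are *Sgta* at -0.52 and *Dnajc1* at 0.44.

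The genes that control the heat shock response had small differences. All 3 tested of the heat shock factors and their regulators were between -0.11 and -0.05 on the log2 scale, with none at an unadjusted p under 0.05. *Hsf2*, a heat shock factor, was at -0.05 (adjusted p = 0.727, edgeR) and *Hsbp1*, which binds heat shock factor 1, at -0.11 (adjusted p = 0.467). Of the 5 other Hsp70 and Hsp110 genes tested the lowest was *Hspa2* at -0.17 (adjusted p = 0.404), followed by *Hspa14* at -0.12 (adjusted p = 0.419), and none had an unadjusted p under 0.05.

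Among 28 other J-domain genes tested, 2 were lower and 2 higher at an unadjusted p under 0.05, and their median was -0.03. *Dnajc1*, a J-domain protein of the ER membrane, had 1840.3, 2846, 2003 and 2205 normalized counts in control replicates 1 to 4 and 2946, 3114, 3542 and 2497 in the treated ones. Control replicate 2 lay among the treated libraries and the other 3 controls below all of them. Its log2 fold change was 0.44 (SE 0.139, adjusted p = 0.121, edgeR), and it was past the threshold once control replicate 2 was removed (0.58, adjusted p = 0.0282) and in DESeq2 (0.45, adjusted p = 0.0213). Over a span of 175508 bases it is among the long genes, and with the gene-length offset it was at 0.28 (adjusted p = 0.489). *Dnajb12*, which works on membrane proteins of the ER, was at -0.22 (adjusted p = 0.125) with all treated libraries below all controls.

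Of the proteins that exchange nucleotide on Hsp70 or hand over its clients, all 9 tested were below 0 (8 with the gene-length offset). Without the offset 3 had an unadjusted p under 0.05. *Sgta*, which guides tail-anchored membrane proteins, had 2420, 4588, 2497 and 3701 normalized counts in control replicates 1 to 4 and 2462, 2498, 2129 and 2148 in the treated ones. Control replicates 2 and 4 were far above the rest, and the other controls lay with the treated libraries. Its log2 fold change was -0.52 (SE 0.182, adjusted p = 0.163, edgeR), -0.32 without control replicate 2 (adjusted p = 0.212), and -0.51 in DESeq2 (adjusted p = 0.0411). *Bag5*, a nucleotide exchange factor, was at -0.23 (adjusted p = 0.165) with treatments that did not overlap, and at -0.11 with the gene-length offset (adjusted p = 0.645).

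The 14 Hsp90 cochaperones had a median of -0.08, with 13 below 0 (8 with the gene-length offset) and none at an unadjusted p under 0.05. The smallest p there belonged to *Fkbp4* at -0.18 (adjusted p = 0.297) and *Ppid* at -0.15 (adjusted p = 0.312), both of which bind Hsp90 in steroid receptor complexes. Of the other small heat shock proteins only *Cryab* was tested, at -0.15 (adjusted p = 0.602). In the cytosolic chaperonin, which folds actin and tubulin, and its helper prefoldin, 11 of 12 were below 0 (10 with the gene-length offset), with a median of -0.14. *Pfdn5* was at -0.20 (adjusted p = 0.227) and *Tcp1* at -0.14 (adjusted p = 0.280), and with the gene-length offset they were at -0.09 and -0.04.

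The ER chaperones and the unfolded protein response, the group of *Hspa5*, had 18 of 22 below 0, a median of -0.12 and 5 lower at an unadjusted p under 0.05 (*Atf4*, *P4hb*, *Herpud1*, *Xbp1* and *Canx*). *Atf4*, the transcription factor made when translation is slowed by stress, had 2520.0, 3041, 3049 and 2632 normalized counts in control replicates 1 to 4 and 2299, 2567, 2186 and 2083 in the treated ones. Only treated replicate 2 reached the range of the controls. The log2 fold change of *Atf4* was -0.30 (SE 0.0878, adjusted p = 0.103, edgeR), and DESeq2 gave -0.29 (adjusted p = 0.0339). *P4hb*, a protein disulfide isomerase, was at -0.18 (adjusted p = 0.144) with all treated libraries below all controls. With the gene-length offset *Atf4* was at -0.18 (adjusted p = 0.379) and *P4hb* at -0.10 (adjusted p = 0.618). The median of the group was then -0.05, with 17 of 22 below 0. All 8 mitochondrial chaperones and proteases were below 0, and 6 of 8 with the gene-length offset. Without the offset *Lonp1*, the protease of the matrix, was at -0.19 (adjusted p = 0.194) and *Hspa9*, its Hsp70, at -0.12 (adjusted p = 0.386).

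The genes whose profiles over the 8 libraries lay closest to a chaperone gene were looked up by the root-mean-square distance of log2 CPM, each gene centered on its own mean. For *Hsp90aa1* these were *Canx* (0.0272 log2 units) and *G3bp2* (0.0291), where the median distance of all genes was 0.183. *Hspd1* was nearest to *Enoph1* (0.0299) and *Gpat4* (0.0359), and *Hspa5* to *Spock2* (0.0372) and *Cct4* (0.0377). The nearest to *Hspa8* were *Tmem169* (0.0516) and *Tmem198* (0.0532), and those to *Dnajb1* were *Tex264* (0.0812) and *Derl1* (0.0867). *Canx* encodes calnexin, a chaperone of the ER, and *Cct4* a subunit of the cytosolic chaperonin. The distances describe these 8 libraries, which share depth and the trend with gene span, and carry no test.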

How the data were processed

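RNA-seq libraries of M1 tissue (4 *Fezf2 shRNA*, 4 *non-silencing shRNA*) were grouped by their titles. Per the methods of the study, with versions from the processing notes of the submitters, the authors trimmed reads, aligned them to mm10 with TopHat2 2.1.1 and deposited raw counts per Ensembl transcript from bedtools 2.26.0 multiCov. These counts include reads in introns, and neither the strand setting nor the treatment of reads that fit several places is given in the sources used here. A second deposited table holds the authors' own DESeq2 comparison (base means, fold changes, test statistics and p-values) and was not used.

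Of 94647 transcripts, 91320 were named by GENCODE M21 (GRCm38), and the rest held 1.82% of the counts. The transcript with the lowest Ensembl number stood for each gene. Genes above 8 CPM in 4 or more libraries were tested with edgeR 4.0.16 (R 4.3.3, TMM, quasi-likelihood test, no covariate). The threshold was an adjusted p of at most 0.05 and a log2 fold change of at least 0.2 in size. Single values were compared by two-sided exact permutation tests over 70 regroupings. With 54684016 to 58003814 counts per library, replicate spread and not counting error limits the precision, except for *Hspb1*.

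The 10 genes and the gene lists were chosen with earlier results of these data known. Named beside them are, from each role of the wider list, the 2 tested genes with the smallest p and any past the threshold, the 2 genes nearest in profile to the most changed member of each role, and *Fezf2*. Others (*Dnajc13*, *Bag4*, *St13*, *Herpud1*, *Xbp1*, *Canx*, *Hspe1*, *Hsp90b1*) were named for a small count or a ratio after their values were seen.

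Alternatives were DESeq2 1.42.0 with and without its prior, its size factors or library totals in edgeR, filters above 1 CPM or none, the widest transcript, other thresholds, the replicate number as a block, a gene-length offset (loess with a span of 0.3, per library, of its log ratio to the average library against log gene span), both together, and each library left out in turn. Fits with no filter combined with the offset, the block or a library left out were added after the data were seen. Promoter windows are from RefSeq (GRCm38.p6). Figures were drawn with matplotlib 3.10.9.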

Additional observations from a re-analysis of the deposited data

Results flagged for a closer look

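In 56 groups of 4 libraries (28 named genes, each in both treatments), 4 held 1 library far from the other 3 by Dixon's criterion, which chance meets in about 1 in 20 groups. For *Hspa1a*, *Fezf2 shRNA* replicate 2 had 427 normalized counts where the other 3 treated libraries had 231 to 239.9. For *Hspa1b*, the same library had 449 where the others had 251 to 271. These near-identical genes can share reads and are not independent. *Hspa8* had 60586 in control replicate 2 where the other controls had 53676 to 54501, and *Hsp90ab1* had 29304 in control replicate 1 where the others had 36798 to 38218. The cause was not tested.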

How the results depend on the processing

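None of the 7 tested members passed the threshold under any alternative run, and their median log2 fold change stayed below 0, from -0.21 (without *Fezf2 shRNA* replicate 2) to -0.04 (gene-length offset, with or without the replicate block). Of the wider list 3 passed in DESeq2 with or without its prior and 0 to 1 with a library left out (1 without control replicate 2). The titles give replicate numbers and no pairing, so the main fit did not take the numbers as pairs. The same-numbered libraries had correlations of their deviations from -0.13 to 0.31, and 4 of 8 libraries lay closest to their own number. These values do not settle whether the numbers are pairs, and the replicate block is given as an alternative. With the replicate block 90 of all genes were past the threshold in place of 208, with 136 by library totals, 84 and 103 with the filter above 1 CPM and with none, 752 and 734 in DESeq2 without and with its prior, 2 with the gene-length offset, and 0 to 368 with a library left out. The median of the members was -0.15 with the replicate block. Of 484 alternative values over 28 genes, 8 changed sign and 9 crossed the threshold. The sign changes were *Hspa8* under the gene-length offset (0.0051), *Hspa1b* with no filter and the replicate block (-0.0041), and with a library left out *Hspa1a* (-0.15 to 0.23), *Hspa1b* (-0.23 to 0.14), *Hsph1* (-0.011 to 0.20) and *Dnajb1* (-0.072 to 0.14). The cause was not tested. At *Hspb1*'s depth of 30.6 to 68.1 counts a small change is not detectable.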
